A study of Mus musculus with 2 samples.

Results

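Hormone-sensing luminal cells are the mammary epithelial cells that carry the receptors for estrogen and progesterone, and they were followed here through 9 genes: *Esr1*, *Pgr*, *Foxa1*, *Gata3*, *Tbx3*, *Cited1*, *Prom1*, *Ly6a* and *Tnfsf11*. These genes were picked by symbol as hormone receptors and markers of that cell type, out of 25810 genes with a symbol, and all 9 were listed for both libraries. Poly(A) RNA had been sequenced from mammary epithelial cells (MECs) of the inguinal glands on lactation day 3, with 1 library from wild type (WT) mice and 1 from *Igfbp7*-/- (KO) mice, in which exon 1 of the gene had been deleted in every cell of the body. Cells positive for CD45, CD31 or Ter119, the surface markers of leukocytes, endothelial cells and erythroid cells, had been removed with magnetic beads. The labels list CD35 rather than CD31. They give the background of both groups as C57BL/6, while the methods state that the knockout was made on the CD1 background. Age, parity and the number of mice per library were not given in the sources used here.

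In the resting gland, ovarian hormones act mainly on this small population, which passes the signal on to neighbouring cells by secreted factors. Estrogen receptor α (*Esr1*) works with the pioneer factor FOXA1 and with GATA3, and among its targets is the progesterone receptor gene *Pgr*. Progesterone in turn acts through paracrine ligands such as RANK ligand (*Tnfsf11*) and WNT4. In the lactating gland, milk-producing alveolar cells outnumber the hormone-sensing cells.

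Of the 9 genes, *Esr1*, *Pgr*, *Foxa1* and *Prom1* were higher in the KO than in the WT library by at least 1.5 times, *Gata3* was lower, and *Tbx3* and *Ly6a* stayed within 1.5 times. *Cited1* and *Tnfsf11* did not reach 1 RPM in either library and were not counted. RPM, as deposited, is the read count of a gene scaled to the mapped reads of its library, and each ratio was taken after 0.1 RPM had been added to both values. With 1 library per genotype no spread between animals could be measured and no difference was tested. The 95% Clopper-Pearson intervals given for ratios, and the exact 95% Poisson intervals given for levels, were computed on read pairs and cover counting error only. In all, 4 of the 7 genes with at least 1 RPM were called higher and 1 was called lower. Among all 14026 genes with at least 1 RPM in either library, 21.4% were higher and 23.0% were lower by the same rule. The median log2 ratio was 1.20 over the 7 genes and 0.03 over all genes. *Pgr* reached 1 RPM only in KO, where it was high; over the 6 genes with at least 1 RPM in both libraries, 3 were higher and 1 was lower, with a median of 0.86, beside 19.9% higher and 20.1% lower of 12651 genes.

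**Figure D1:**
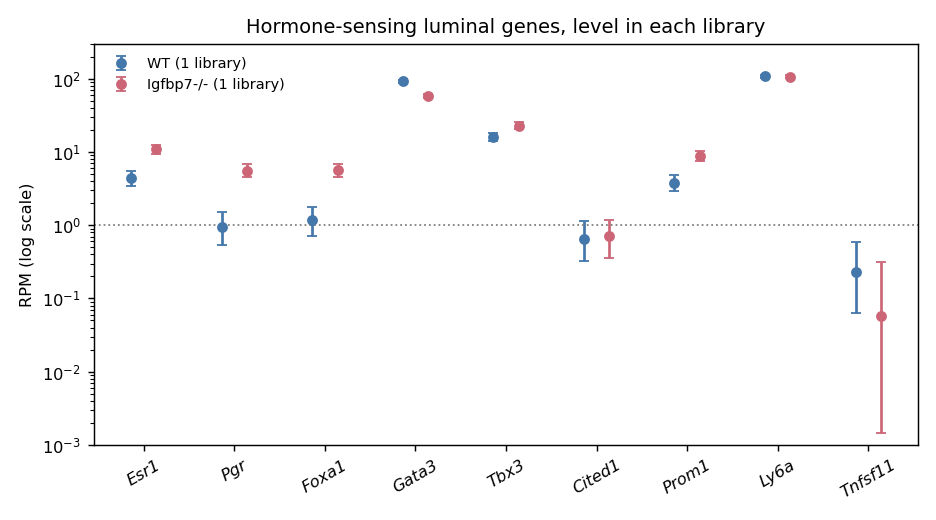
Level of each of the 9 genes in RPM on a log axis, with 1 point per library (blue, WT; red, *Igfbp7*-/-) and bars for the exact 95% Poisson interval on read pairs; the dotted line marks 1 RPM. *Esr1*, *Pgr*, *Foxa1*, *Prom1* and *Tbx3* have separate intervals with the *Igfbp7*-/- library on top, although *Tbx3* stayed within 1.5 times. *Gata3* has the WT library on top, and the 2 points of *Ly6a* lie side by side.

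The libraries held 28262015 reads on genes with a symbol in WT and 25306845 in KO, or 82.3% and 72.3% of the mapped reads. The smallest amount taken as detected, 3 reads, came to 0.0874 RPM in the first and 0.0857 RPM in the second library. *Igfbp7*, as a check of the labels, was covered by 5224 WT and 37 KO reads, or 152 RPM against 1.06 RPM. When each library was scaled to its reads on listed genes, the median log2 ratio of all genes moved to 0.22, with 30.3% of genes higher and 18.4% lower.

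The stretches of DNA just before the start sites are shown for the 4 genes that were higher in KO, so that the motifs of the estrogen receptor, FOXA and GATA factors can be looked for there. Each is the 250 bases before the first start site listed by RefSeq, from build GRCm38.p6 and written 5′ to 3′ on the transcript strand. Capitals mark matches, on either strand, to an arm of the estrogen response element with the letters GGTCA. They also mark the motif of FOXA factors, searched as TGTTTAC on either strand. The motif of GATA factors was searched as AGATAA in the same way. No matches overlapped each other.
Esr1, chr10:4611739-4611988, plus strand: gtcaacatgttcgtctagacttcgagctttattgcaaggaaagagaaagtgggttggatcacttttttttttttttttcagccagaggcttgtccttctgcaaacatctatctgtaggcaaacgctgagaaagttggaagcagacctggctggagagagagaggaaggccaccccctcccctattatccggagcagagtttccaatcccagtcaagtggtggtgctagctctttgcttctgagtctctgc
Pgr, chr9:8899583-8899832, plus strand: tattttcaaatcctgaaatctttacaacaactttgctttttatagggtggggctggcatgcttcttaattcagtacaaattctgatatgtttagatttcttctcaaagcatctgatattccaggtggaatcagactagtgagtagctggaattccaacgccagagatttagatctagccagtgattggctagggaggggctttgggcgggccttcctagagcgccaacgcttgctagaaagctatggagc
Foxa1, chr12:57546112-57546361, minus strand: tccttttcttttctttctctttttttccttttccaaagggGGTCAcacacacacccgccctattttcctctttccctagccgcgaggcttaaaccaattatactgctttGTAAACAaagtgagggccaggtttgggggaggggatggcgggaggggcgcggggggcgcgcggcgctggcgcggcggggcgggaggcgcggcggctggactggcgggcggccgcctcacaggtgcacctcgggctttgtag
Prom1, chr5:44101737-44101986, minus strand: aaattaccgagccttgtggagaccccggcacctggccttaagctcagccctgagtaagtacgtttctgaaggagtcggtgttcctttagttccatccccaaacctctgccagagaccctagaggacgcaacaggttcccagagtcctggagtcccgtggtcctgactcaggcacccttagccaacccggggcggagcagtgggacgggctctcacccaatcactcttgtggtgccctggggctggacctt

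Of these 4 windows, only that of *Foxa1* held a match. Its GGTCA began 210 bases before the start site, and its FOXA match began 141 bases before it. Of 32851 such windows in the RefSeq table, 35.2% held the response element arm on either strand, 3.17% held the FOXA motif and 9.99% held the GATA motif. The whole palindromic estrogen response element was in none of the 4 windows and in 0.0639% of all windows. *Esr1* and *Prom1* each have another listed start, whose windows held none of these letters. Among the genes not shown, the response element arm was also in the window of *Gata3*, which was lower in KO, 199 bases before its start site. It was in the windows of the listed starts 1 and 3 of *Cited1* as well.

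*Esr1* encodes estrogen receptor α, the receptor through which estrogen drives ductal growth. In NCBIM37, the mouse build that corresponds to the mm9 named in the processing notes, the gene lies on chromosome 10 from 5340927 to 5734948 on the minus strand; this stretch is inverted in GRCm38.p6, where the gene is on the plus strand. It had 153 reads in WT and 383 in KO, or 4.46 RPM (95% Poisson interval 3.49 to 5.54) and 10.9 RPM (9.42 to 12.6). The KO level lay above the whole counting interval of WT. The log2 ratio was 1.28 (95% Clopper-Pearson interval 0.91 to 1.70), a level 2.42 times as high.

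*Pgr* encodes the progesterone receptor, a classical estrogen target that is needed for side branching and alveolar growth. It lies on chromosome 9 from 8900419 to 8965425 on the plus strand. It was covered by 32 WT and 196 KO reads, or 0.93 RPM (interval 0.53 to 1.51) against 5.60 RPM (4.54 to 6.82). Its log2 ratio of 2.46 (1.82 to 3.45) was the highest of the 9 genes, and 99.2% of all tested genes had a lower ratio.

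*Foxa1*, on chromosome 12 from 58641618 to 58647108, encodes a pioneer factor that opens chromatin for estrogen receptor α. It was covered by 40 WT and 197 KO reads, or 1.17 RPM (interval 0.71 to 1.80) against 5.63 RPM (4.54 to 6.82). The log2 ratio was 2.18 (1.56 to 3.04), above that of 98.8% of tested genes. The counting interval of *Foxa1* overlapped those of both *Pgr* and *Esr1*, while the intervals of *Pgr* and *Esr1* did not overlap. With a minimum of 10 RPM in either library, *Pgr*, *Foxa1* and *Prom1* dropped out, and *Esr1* was the 1 gene of the remaining 4 that was higher. Of all 8201 genes at that minimum, 20.7% were higher.

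*Gata3*, a zinc finger factor that luminal cells need for their differentiation, moved the other way. The gene lies on chromosome 2 from 9778705 to 9811661, on the minus strand. It was covered by 3181 WT and 2035 KO reads, or 92.7 RPM against 58.1 RPM, a log2 ratio of -0.67 (-0.79 to -0.56), with an interval that reached to just inside the 1.5-fold threshold. Scaled to the reads on listed genes, the log2 ratio was -0.48, which is within 1.5 times. *Gata3* overlaps 3 annotated genes, of which 9230102O04Rik is on the same strand and Gm13256 and 4930412O13Rik are on the opposite strand. Of these, 4930412O13Rik was matched by symbol, with 2.59 RPM in WT and 3.80 RPM in KO. Whether strand was used in counting was not given in the sources used here, and reads in the overlaps cannot be told apart.

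*Tbx3*, a T-box repressor required for the mammary primordium, lies on chromosome 5 from 120120678 to 120134733. It was covered by 550 WT and 807 KO reads, or 16.0 RPM against 23.0 RPM. The log2 ratio was 0.52 (0.30 to 0.75), with the interval above 0 and on both sides of the 1.5-fold threshold at 0.58. Scaled to the reads on listed genes it reached 0.71, which is past that threshold.

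*Cited1* encodes a coregulator that binds CBP/p300 and assists estrogen receptor α. It lies on chromosome X from 99442720 to 99447520. It was covered by 22 WT and 25 KO reads, or 0.64 RPM (interval 0.32 to 1.15) against 0.71 RPM (0.35 to 1.20). The intervals of the libraries overlapped almost fully. The log2 ratio of 0.14 had an interval from -1.21 to 1.42. At this depth the counts excluded neither equal levels nor a difference of the size seen for *Esr1*.

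Both surface markers are used to sort hormone-sensing luminal cells, *Prom1* as CD133 and *Ly6a* as Sca-1. *Prom1*, on chromosome 5 from 44384864 to 44493271, was covered by 130 WT and 309 KO reads, or 3.79 RPM (interval 2.92 to 4.83) against 8.82 RPM (7.46 to 10.3). Its log2 ratio of 1.20 (0.79 to 1.66) was close to that of *Esr1*, and the intervals of the 2 genes overlapped widely. *Ly6a*, on chromosome 15 from 74825308 to 74828064, was covered by 3702 WT and 3726 KO reads, or 108 RPM (103 to 113) against 106 RPM (102 to 111). The log2 ratio of *Ly6a* was -0.02 (-0.11 to 0.07), and it became 0.17 when libraries were scaled to the reads on listed genes. The sort markers thus differed from each other: the intervals of their ratios did not overlap.

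Sca-1 is also carried by endothelial cells, fibroblasts and lymphocytes, and *Ly6a* is an interferon-inducible gene. All 15 interferon response genes examined were lower in KO by at least 1.5 times, beside 23.0% of all genes. Their median log2 ratio was -2.53 and their summed level was 3578 RPM in WT and 594 RPM in KO. The 7 endothelial markers summed to 1153 RPM in WT and 369 RPM in KO. The part of either in the level of *Ly6a* was not tested. Of the 35-base windows in the annotated *Ly6a* transcript, 13.9% also occur in transcripts of other genes, most of them *Ly6i*, *Ly6c1* and *Ly6c2*, so some reads may be shared. For the other 8 genes the share was between 0 and 0.127%, the latter for *Foxa1*.

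*Tnfsf11* encodes RANK ligand, the signal by which progesterone makes neighbouring cells divide, and lies on chromosome 14 from 78677252 to 78707850. It was covered by 8 WT and 2 KO reads, or 0.23 RPM (interval 0.06 to 0.60) against 0.06 RPM (0.001 to 0.32). The KO count was below the 3 reads taken as detected. The log2 ratio without the added 0.1 RPM was -2.03, with a counting interval from -7.65 to 1.31. Values within that interval could not be told apart at this depth.

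**Figure D2:**
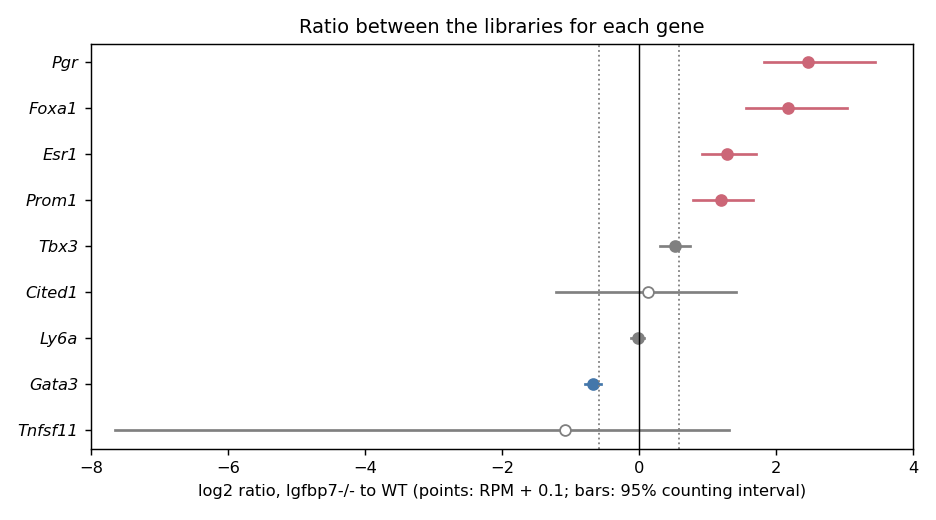
Log2 ratio of *Igfbp7*-/- to WT for each gene (points, from RPM + 0.1; red, higher; blue, lower; grey, within 1.5 times; open, below 1 RPM in both libraries) with bars for the 95% Clopper-Pearson interval and dotted lines at 1.5 times. The bars of *Pgr*, *Foxa1*, *Esr1* and *Prom1* lie right of the threshold, that of *Tbx3* crosses it, and that of *Tnfsf11* runs from -7.65 to 1.31.

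Levels of different genes were compared as RPKM, the RPM per kilobase of the gene length used by the authors. In WT the order was *Ly6a* (128 RPKM), *Gata3* (28.5), *Tbx3* (3.15), *Esr1* (1.03), *Prom1* (1.01), *Cited1* (0.65), *Foxa1* (0.37), *Pgr* (0.14) and *Tnfsf11* (0.10). Counting intervals of neighbours overlapped from *Esr1* to *Foxa1* and between *Pgr* and *Tnfsf11*. In KO the first 5 places were the same: *Ly6a* (126 RPKM), *Gata3* (17.8), *Tbx3* (4.53), *Esr1* (2.53) and *Prom1* (2.34). *Foxa1* (1.76) and *Pgr* (0.81) then stood above *Cited1* (0.72) and *Tnfsf11* (0.03). In KO the intervals of *Esr1*, *Prom1* and *Foxa1* overlapped from neighbour to neighbour, as did those of *Pgr* and *Cited1*. The receptors were thus weakly measured in both libraries: 17.2% of tested genes had a lower RPKM than *Esr1* in WT and 35.2% had a lower one in KO, against 97.7% and 98.1% for *Ly6a*. With 2 libraries, genes could not be ranked by likeness of pattern.

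The wider hormone response was read from a list of 54 further genes, of which 51 were found by symbol (not *Gper1*, *Tfap2b* and *Tfap2c*) and 47 reached 1 RPM. In KO, 19 of the 47 (40.4%) were higher by at least 1.5 times, beside 21.4% of all genes, and 4 (8.51%) were lower, beside 23.0%. Their median log2 ratio was 0.43, against 0.03 over all genes. Genes of this list below 10 RPM are named after their values had been seen.

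Among the other hormone receptors, *Prlr*, the prolactin receptor, was covered by 1035 WT and 3591 KO reads, or 30.2 RPM against 103 RPM, a log2 ratio of 1.76 (1.63 to 1.91). It was higher in KO, as *Esr1* and *Pgr* were. *Esr2*, which encodes estrogen receptor β, had 10 reads in WT and 3 reads in KO and did not reach 1 RPM. The growth hormone receptor gene *Ghr* was within 1.5 times, at 50.6 RPM in WT and 66.7 RPM in KO.

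Of the 6 paracrine ligands beside *Tnfsf11*, 3 were higher in KO and 1 was lower. Over all genes 21.4% were higher and 23.0% lower. *Areg*, which encodes the amphiregulin that relays the estrogen signal to the EGF receptor, was covered by 48 WT and 172 KO reads, or 1.40 RPM against 4.91 RPM, a log2 ratio of 1.74 (1.15 to 2.53). *Wnt4*, a progesterone-induced ligand, had 53 reads (1.54 RPM) and 187 reads (5.34 RPM), a log2 ratio of 1.73 (1.17 to 2.50). *Rspo1*, an enhancer of WNT signals, had 70 reads (2.04 RPM) and 328 reads (9.37 RPM), a log2 ratio of 2.15 (1.67 to 2.77). *Igf2* was the ligand that was lower, with 54.9 RPM in WT and 22.0 RPM in KO. *Calca* (4.37 and 5.91 RPM) and *Fgf10* (2.10 and 2.40 RPM) were within 1.5 times.

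Of the 5 further genes of the RANK pathway, 2 were lower, 3 were within 1.5 times and none was higher, beside 23.0% lower and 21.4% higher over all genes. *Tnfrsf11a*, the receptor RANK, was covered by 2648 WT and 1340 KO reads, or 77.1 RPM against 38.3 RPM, a log2 ratio of -1.01 (-1.15 to -0.88). *Tnfrsf11b*, which encodes the decoy receptor osteoprotegerin, had 779 reads (22.7 RPM) and 220 reads (6.28 RPM), a log2 ratio of -1.84 (-2.17 to -1.54). *Traf6*, the adaptor below RANK, had a log2 ratio of 0.54, *Id2* of 0.02 and *Elf5*, the alveolar regulator, of -0.52.

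Coregulators of nuclear receptors held the largest group of higher genes, 9 of 15 with none lower, beside 21.4% higher and 23.0% lower over all genes. *Nrip1*, a corepressor that is itself induced by estrogen, was covered by 4742 WT and 17417 KO reads, or 138 RPM against 497 RPM, a log2 ratio of 1.85 (1.78 to 1.91). *Lcor* (3.79 and 17.2 RPM) had a log2 ratio of 2.15, *Cited2* (143 and 295 RPM), a relative of *Cited1*, of 1.04, and *Crebbp* (89.3 and 173 RPM) of 0.95. *Ncoa1*, *Ncor1*, *Fkbp5* and *Ep300* had log2 ratios from 0.60 to 0.70, just past the threshold of 0.58.

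Of 11 estrogen or progesterone targets with at least 1 RPM, 4 were higher and none was lower, beside 21.4% and 23.0% of all genes. *Greb1*, among the most estrogen-dependent genes, was covered by 39 WT and 168 KO reads, or 1.14 RPM against 4.80 RPM, a log2 ratio of 1.99 (1.38 to 2.92). *Cyp26b1*, a retinoic acid hydroxylase, was at 2.16 and 7.28 RPM, and *Krt19*, a luminal keratin, at 105 and 292 RPM. *Fxyd3*, at 0.84 RPM in WT and 1.66 RPM in KO, entered the count only through its KO level. The other 7 stayed within 1.5 times, among them *Ctsd* (256 and 280 RPM), *Ccnd1* (93.5 and 68.7 RPM) and *Stc2* (5.59 and 5.88 RPM). Of the 6 luminal transcription factors, *Myb* was higher (1.11 and 2.97 RPM) and *Tbx2* was lower (2.04 and 1.09 RPM). These counts, 16.7% each way, were near the shares over all genes. The remaining 4, with *Xbp1* (332 and 395 RPM) and *Runx1* (247 and 265 RPM) the most abundant, were within 1.5 times.

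**Figure D3:**
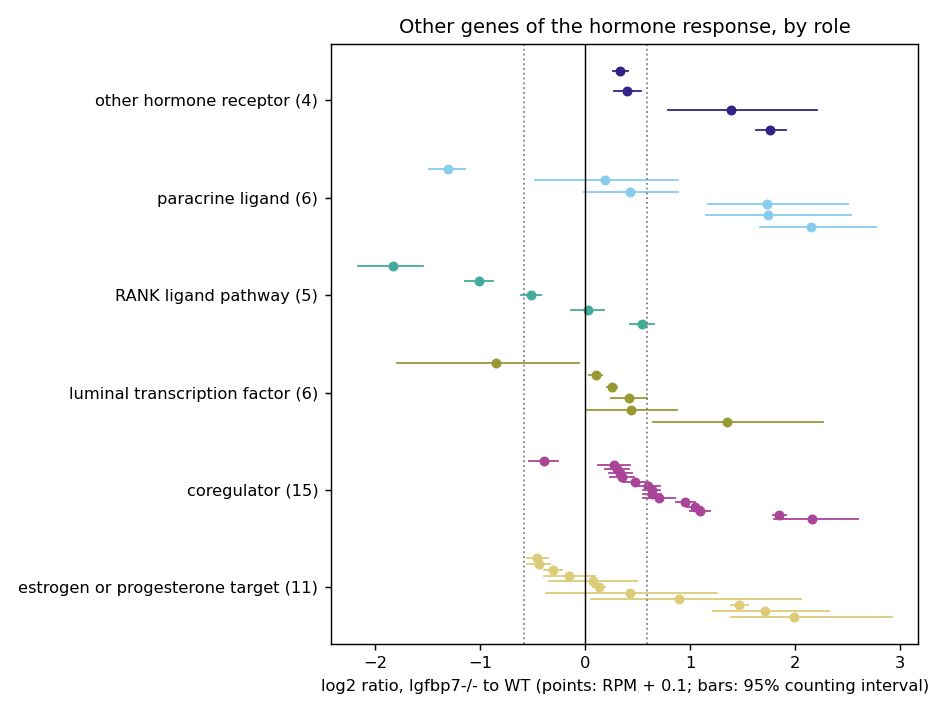
Log2 ratio of *Igfbp7*-/- to WT for the 47 further genes of the hormone response with at least 1 RPM, grouped by role with the number of genes in brackets, 1 point per gene, and bars for the 95% Clopper-Pearson interval and dotted lines at 1.5 times. Coregulators lie mostly on the right, with 9 of 15 past the threshold (21.4% of all genes), while *Tnfrsf11a* and *Tnfrsf11b* of the RANK pathway lie on the left at -1.01 and -1.84.

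General luminal markers were mostly higher in KO. All 7 had a ratio above 1 and 5 were higher by at least 1.5 times, beside 21.4% of all genes. Their median log2 ratio was 1.56. Their summed level was 1539 RPM in WT and 3843 RPM in KO, a ratio of 2.50. *Krt8* was at 268 and 789 RPM, *Krt18* at 250 and 1174 RPM, and *Krt7* at 17.1 and 128 RPM, while *Epcam* (338 and 482 RPM) and *Cdh1* (349 and 455 RPM) were within 1.5 times. The log2 ratios of *Pgr* and *Foxa1* lay above the median of the 7 luminal markers, by 0.91 and 0.62, while those of *Esr1* and *Prom1* lay below it, at -0.28 and -0.36 from it. Subtracting that median takes the same amount from every gene, and puts 2 of the 7 hormone-sensing genes on the higher side and 3 on the lower, beside 1.29% and 89.9% of all genes. This comparison was added after the values had been seen. In bulk RNA of this kind, more cells of a type and more RNA per cell cannot be told apart.

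Markers of most other cells of the gland were lower in KO, to be read beside 23.0% lower and 21.4% higher over all genes. Of 7 alveolar genes 6 were lower, with a summed level of 126406 RPM in WT and 47472 RPM in KO. Of 10 basal markers 9 were lower, with sums of 3834 and 1223 RPM. Of 7 fibroblast markers 4 were lower and 1 was higher (9084 and 4619 RPM). Endothelial markers were lower in 6 of 7 cases, and leukocyte markers in 7 of 9 (193 and 79.9 RPM). Of 7 luminal progenitor markers 2 were higher and 1 was lower (964 and 1134 RPM), or 28.6% and 14.3%, close to the shares over all genes. Of the keratinocyte markers, *Krt2* and *Flg* were at 0 reads in both libraries, and no marker of the lists above was at 0. *Krt10* had 46 WT and 24 KO reads, *Krt1* had 18 and 4, and *Lor* had 18 and 10. Only *Krt10* reached 1 RPM (1.34 RPM in WT and 0.69 RPM in KO). It was called lower, with a counting interval that included 0. Of 4 adipocyte markers with at least 1 RPM, 3 were lower and 1 was higher, and the list summed to 562 RPM in WT and 192 RPM in KO. Of 3 erythroid markers with at least 1 RPM none was called, and that list summed to 889 and 997 RPM. Fibroblasts can express *Esr1*, *Pgr* and *Tbx3*, and T cells *Gata3* and *Tnfsf11*. After the removal of CD45-positive cells, the T cell marker *Cd3e* was at 9.44 RPM in WT and 2.83 RPM in KO, and *Cd3g* was within 1.5 times, at 1.51 and 1.14 RPM. The part of these cells in the levels of the 9 genes was not tested.

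**Figure D4:**
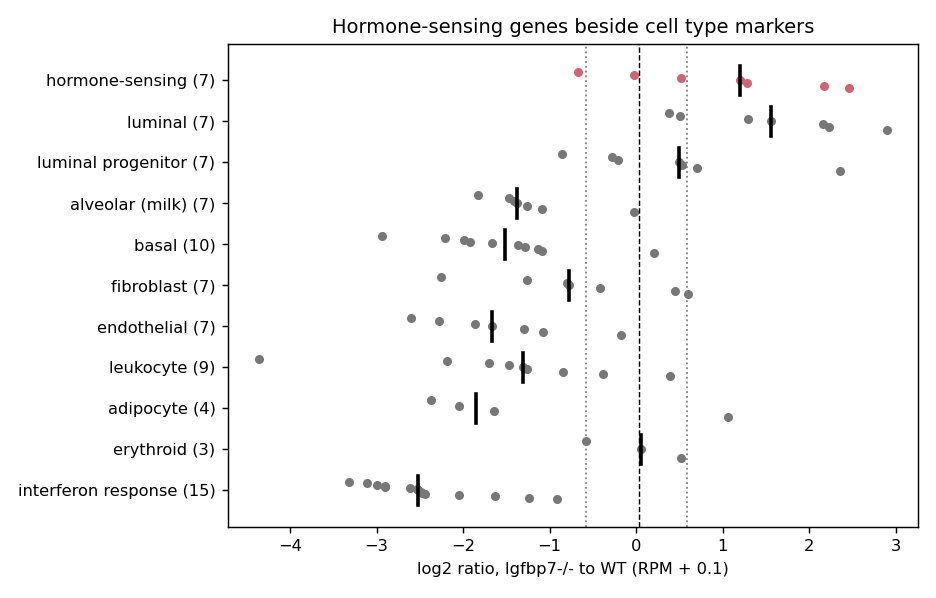
Log2 ratio of *Igfbp7*-/- to WT for the hormone-sensing genes (red) and for marker genes of each cell type and the interferon response (grey), 1 point per gene with at least 1 RPM and their number in brackets; black bars mark the median of each list, the dashed line the median of all genes and dotted lines 1.5 times. The medians of the hormone-sensing (1.20) and luminal (1.56) genes lie on the right, while those of the alveolar, basal, fibroblast, endothelial, leukocyte and adipocyte genes lie on the left.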

How the data were processed

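Poly(A) RNA of MECs was sequenced on a SOLiD sequencer with paired-end reads, with 1 library per genotype. The authors mapped reads with a Bowtie-based GeneSifter pipeline after removal, per the methods, of mitochondrial, ribosomal and small nuclear RNA. The deposited values still placed 29517 RPM in WT and 31458 RPM in KO on genes listed as rRNA. The submitters' processing notes list Bowtie 0.12.3, SAMtools 0.1.15 and mm9, whereas the methods name a human build. The annotation and the handling of reads with several matches were not given in the sources used here. The authors deposited a raw read count per gene, the RPM (count scaled to all mapped reads, also those outside the listed genes) and the RPKM (RPM per kilobase). A blank count, always beside an RPM of 0, was read as 0. Rows with no gene symbol (50) were dropped.

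Ratios of KO to WT were taken on RPM + 0.1 for genes with at least 1 RPM in either library, and a ratio of 1.5 in either direction was counted, the fold threshold of the study's methods. Among genes with 1 to 20 reads, 75.8% of WT and 74.1% of KO counts were even, so intervals were computed on counts divided by 2 and rounded down. They leave out the added 0.1 RPM. The 9 genes and all lists were chosen with earlier results of these data known. All 9 genes were named, as were hormone response genes that reached 10 RPM in WT or KO, relatives with at least 1 RPM, and marker and interferon genes; hormone response genes below 10 RPM were named after their values were seen. Coordinates came from GENCODE vM1 (NCBIM37) and start site sequences from RefSeq (GRCm38.p6), which held 7 of the 9 genes. The alternatives were other pseudocounts, RPKM, other minimums, other scalings (TMM of edgeR 4.0.16, size factors of DESeq2 1.42.0) and a ratio of 2. The scripts were tested on simulated counts. Python 3.11.15, numpy 2.4.6, pandas 2.3.3, scipy 1.17.1 and R 4.3.3 were used.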

Additional observations from a re-analysis of the deposited data

How the results depend on the processing

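Each library stands for its genotype without replicates, so no alternative can show how far animals differ, and leaving out a replicate was not possible. No paired analysis was possible because each genotype had 1 library. The log2 ratios of *Esr1* (1.13 to 1.47), *Pgr* (1.77 to 2.67), *Foxa1* (1.61 to 2.38), *Prom1* (1.04 to 1.39), *Gata3* (-0.71 to -0.48) and *Tbx3* (0.49 to 0.71) kept their sign under each alternative other than the 2 added later, wherever a value was given. *Ly6a* ran from -0.05 to 0.17. Without a minimum, 2 of the 9 genes were lower, since *Tnfsf11* then counted, and the median fell to 0.52. Of all 20151 genes in that setting, 26.2% were lower. With at least 10 RPM in either library, 1 of 4 genes was higher, the median was 0.25 and 11 of 33 genes of the hormone response were higher. Of all 8201 genes at that minimum, 20.7% were higher. Of the 7 genes with at least 1 RPM, 0 were lower when libraries were scaled to the reads on listed genes, beside 18.4% of all genes. The same held for scaling to the reads on protein-coding genes (added after seeing the data), beside 18.0%. It also held at a ratio of 2, at which 9.64% of all genes were higher and 13.8% lower against 21.4% and 23.0% at 1.5. Relative to the 7 luminal markers, also added after seeing the data, 2 genes were higher and 3 lower, the median was -0.36, *Esr1* came to -0.28 and *Prom1* to -0.36, and of the 47 hormone response genes 2 were higher and 34 lower. That measure puts 89.9% of all genes on the lower side and 1.29% on the higher side, by its construction. Depth limits *Pgr* (32 WT reads) and *Foxa1* (40 WT reads) most among the genes called.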

Other observations

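Close relatives of the 9 genes were read from a list of 27, of which 15 reached 1 RPM in either library. Of these, 3 were higher in KO by at least 1.5 times and 5 were lower, beside 21.4% higher and 23.0% lower over all genes, with a median log2 ratio of -0.53. *Esrrb* and *Ly6d* reached 1 RPM only in KO, where they were high, and *Ly6k* and *Tnfsf13b* only in WT. *Cited4*, a relative of *Cited1*, was covered by 278 WT and 686 KO reads, or 8.10 RPM against 19.6 RPM, which put the log2 ratio at 1.26 (interval 0.99 to 1.57). The orphan receptor gene *Esrrb* had 17 and 84 reads (0.50 and 2.40 RPM), while its relative *Esrra* was within 1.5 times (5.36 and 8.08 RPM). *Prom2*, a relative of *Prom1*, was at 7.11 RPM in WT and 4.80 RPM in KO, a log2 ratio of -0.56, where *Prom1* was higher in KO. *Gata2* was lower (4.34 and 2.48 RPM), as *Gata3* was.

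In the *Ly6* family on chromosome 15, *Ly6e* (715 RPM in WT and 496 RPM in KO), *Ly6c1* (67.0 and 47.0 RPM) and *Ly6c2* (12.6 and 7.60 RPM) had log2 ratios of -0.53, -0.51 and -0.72, and *Ly6a* had -0.02. *Ly6d*, a luminal surface marker, was covered by 14 WT and 76 KO reads, or 0.41 RPM against 2.17 RPM. Of the TNF ligands, *Tnfsf10*, which encodes TRAIL, was lower (45.9 and 9.60 RPM), as was *Tnfsf13b* (1.51 and 0.60 RPM).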
